A study of Mus musculus with 20 samples.

Results

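The receptors for dopamine, serotonin and the adrenergic transmitters were examined in the prefrontal cortex of stressed and unstressed mice. All non-control probes whose gene name began with Drd, Htr, Adra or Adrb and the number of a known receptor subtype were taken, which gave 37 probes of 28 genes among 39429 probes on the array. No measured value entered this choice. Dopamine receptors had 5 probes of 5 genes, serotonin receptors 19 probes of 14 genes and adrenergic receptors 13 probes of 9 genes. The tissue was the frontal pole, cut as a slice of 1 mm, of male Swiss-Webster mice, an outbred stock, which were moved to single cages at 12 weeks of age and habituated for 22 days. Stressed mice were then put as intruders into the home cage of a group of males, and controls were left undisturbed. The 4 groups had a single encounter (acute), 8 days of encounters, 13 days of encounters, or 13 days of encounters followed by 5 days of rest. Brains of the first 3 groups were taken 24 h after the last encounter. Each group had its own unstressed controls, largely brothers of its stressed mice, and stressed and control mice lived in separate rooms, so that room and stress cannot be told apart. No mutant, transgene or drug was used. Each time point had 3 pairs of pools of 3 mice, and the stressed and the control pool of a pair were hybridised together on 2-colour 60-base arrays. Pool 1 was measured on 1 array with stress in the red dye Cy5, and pools 2 and 3 on an original and a dye-swapped array, which makes 20 arrays.

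Monoamine fibres reach the prefrontal cortex from a few small brainstem nuclei, and their receptors set how strongly cortical neurons respond to other inputs. Most of these receptors act through G proteins. Receptors coupled to Gs (Drd1a, Drd5, Htr4, Htr6, Htr7 and the beta receptors) raise cyclic AMP, and those coupled to Gi (Drd2, Drd3, Drd4, the Htr1 group, Htr5a, Htr5b and the alpha-2 receptors) lower it. Receptors coupled to Gq (the Htr2 group and the alpha-1 receptors) activate phospholipase C, and Htr3a and Htr3b form an ion channel. In the prefrontal cortex the alpha-2A and D1 receptors are known for their part in working memory, and Htr2a is best known as the site of action of classical hallucinogens.

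The value given for a receptor is the log2 ratio of stress over control, so that 0 is no difference and a negative value is lower in the stressed mice. Ratios were made from mean spot intensities with normexp background correction and loess, and the arrays of a pool were averaged, so n is 3 pools at each time point. An SE is that of the limma fit over all probes, and the p-values measure the spread between these pools. In pieces of tissue, fewer cells of a type and less RNA per cell cannot be told apart. On each array 70.5% to 74.4% of probes passed the scanner's mark for well above background. After turning, the original and the swapped array of a pool correlated at r of -0.36 to -0.092 over all probes, so over the whole array a dye effect stood against the stress difference, and the dye effect of a receptor is given where it is large.

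A group of 8 of the 20 arrays stood apart. They are the arrays with a background SD fitted by normexp of over 50 in either channel, a limit set after seeing the data. On these, 4 to 83 of the 44397 spots had a local background more than 3 times the median of the array, against 0 to 7 spots on the other 12 arrays, and the background SD fitted by normexp reached 158 to 6019 against 0.963 to 11.0. Their log ratios had an r of 0.22 to 0.74 with the scanner's own log ratio over bright probes, against 0.74 to 0.88 on the others. Of the 8, 6 were among the 8 arrays of pool 3, which were scanned on another day than the 12 arrays of pools 1 and 2. When the high local backgrounds were replaced by the median of the array, in an alternative chosen after seeing the data and called the repaired background here, the r of the 8 arrays rose to 0.77 to 0.87. No receptor spot was among those replaced. Values with the repaired background are given beside the values as processed.

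**Figure D1:**
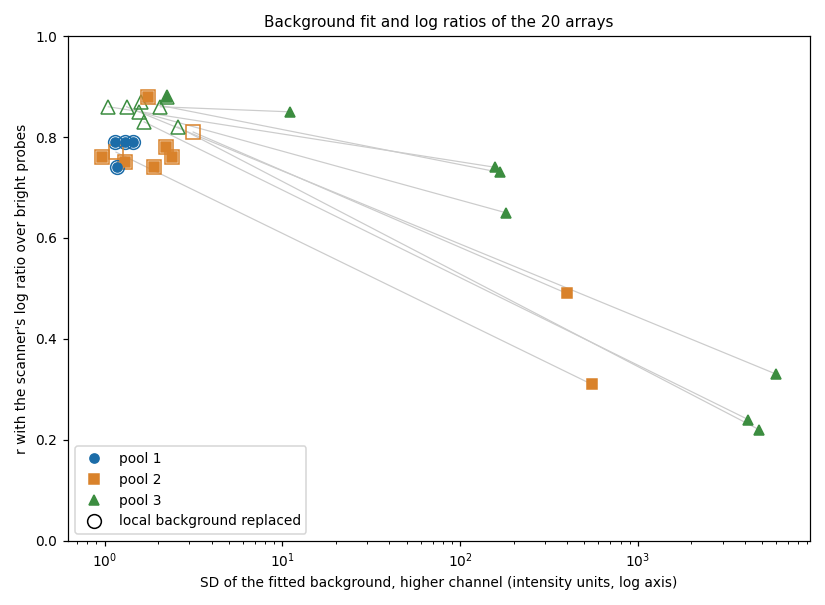
Each point is one of the 20 arrays, by the background SD that normexp fitted in its higher channel (log axis) and the correlation of its log ratios with the scanner's own, as processed and with the repaired background. The 8 affected arrays, with a fitted SD of 158 to 6019, reach r of 0.22 to 0.74 as processed and 0.77 to 0.87 after the repair, and the other 12 arrays lie between 0.74 and 0.88.

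The middle 30 bases of the probes that the results turn on are shown so that the measured stretch of each transcript is plain, in the mm9 build and 5′ to 3′ as on the array, with no part singled out in capitals. The Drd4 probe lies at chr7:148480683-148480742, the Htr2a probe at chr14:75106454-75106513, the Htr1a probe at chr13:106237236-106237295 and the Htr7 probe at chr19:36033339-36033398. The Adra1d probes lie at chr2:131371721-131371780 and chr2:131371198-131371257, 523 bases apart. Whether these stretches are coding or untranslated was not determined here.
Drd4: tacaccatcttcaacgcggagtttcgaagt
Htr2a: atgttgttgatgggtagcatgggagtaagt
Htr1a: gttttgcgttatatctgaacttcgaatttt
Htr7 (A_55_P2100103): agctgcagattcgctagagtgaacgtatat
Adra1d (A_55_P1961809): tgttccccaagacggggcagaggctgtcat
Adra1d (A_55_P2019954): tggtatattggatgcccgccatacaaatct

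The families differed in how many of their probes gave a signal. A probe is called bright here where it was well above background in at least 1 channel on all 20 arrays, mixed where on 1 to 19 arrays and dim where on 0. All 13 adrenergic probes were bright. Of the 5 dopamine receptor probes 4 were bright, and Drd3, a receptor best known from the ventral striatum, was well above background on 15 arrays. Of the 19 serotonin receptor probes 10 were bright, from 8 genes, 7 were mixed and 2 were dim. The mixed ones were Htr5b on 19 arrays, Htr1d on 17, Htr1b on 14, one Htr2c probe on 9, and Htr2b, Htr3b and one Htr4 probe on 2 arrays each. The second Htr4 probe and the second Htr7 probe were not well above background on any array. In all, 27 probes of 21 genes were bright, and 19 of these were well above background in both channels on all 20 arrays. Among the other 8, Drd2 passed in the green channel on 9 arrays and Htr5a on 12. Ratios are described for bright probes only, and probes of a gene can differ in detection, as for Htr7 with 1 bright and 1 dim probe.

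**Figure D2:**
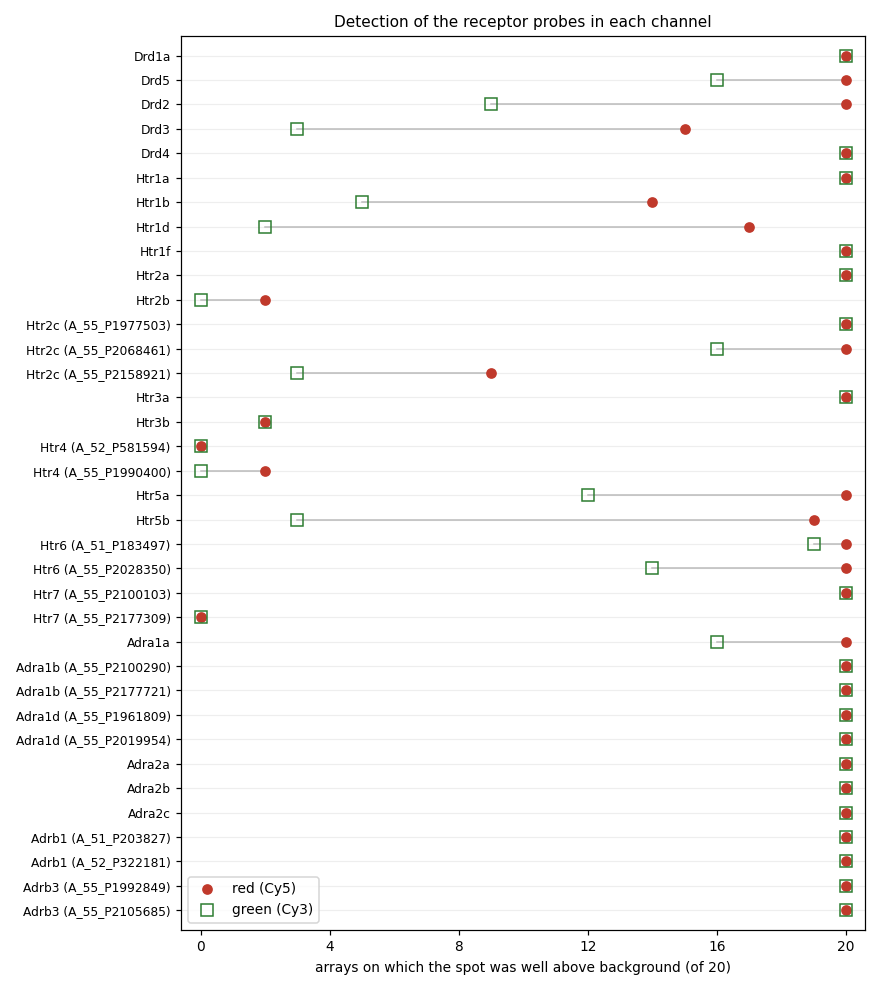
For the receptor probes reported here the plot shows on how many of the 20 arrays each was well above background, in the red and in the green channel. All adrenergic probes shown reach 20 arrays in at least 1 channel, while 7 serotonin receptor probes are mixed and 2 are at 0.

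None of the 37 receptor probes was called at any time point, a call being an adjusted p under 0.05 in limma with a log2 ratio over 0.5 in size. Of all probes, 0.00254% were called at the acute time point, 0% at 8 days, 0.0228% at 13 days and 0% after rest. None was called for the mean of the 4 time points, against 0.0127% of all probes, nor in the differences 13 days minus acute (0.00254%), 8 days minus acute (0%), 13 days minus 8 days (0%) and rest minus 13 days (0%). At an unadjusted limma p under 0.05 there were 3 of 27 bright receptor probes at the acute time point, against 5.68% of all bright probes. There was 1 at 8 days (3.13%), 5 at 13 days (9.72%) and 1 after rest (4.29%). The mean of the 4 time points gave 2 (9.99%), 13 days minus acute 1 (5.77%), 8 days minus acute 3 (3.03%), 13 days minus 8 days 0 (1.87%) and rest minus 13 days 4 (6.81%). The counts stood within a few probes of what these shares give for 27 probes.

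The 27 bright probes ran from -0.26 to 0.14 at the acute time point, with a median of 0.011. They ran from -0.10 to 0.11 at 8 days, from -0.17 to 0.18 at 13 days and from -0.080 to 0.17 after rest. The widest 95% interval of a receptor at a time point was 0.20 to either side. The size of these ratios depended on the background correction, whose offset of 50 is added to both channels. At 13 days Htr1a ran from 0.096 to 0.45 over the 36 settings tried. The 3 pools of a time point had the same sign for 8 of 27 probes at the acute time point (26.9% of all bright probes), 4 at 8 days (18.5%), 9 at 13 days (31.0%) and 4 after rest (22.7%). Pool 1, with its single array, was the most variable, with a root mean square over the receptors of 0.13 to 0.17 by time point, against 0.065 to 0.12 in pool 2 and 0.060 to 0.089 in pool 3.

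**Figure D3:**
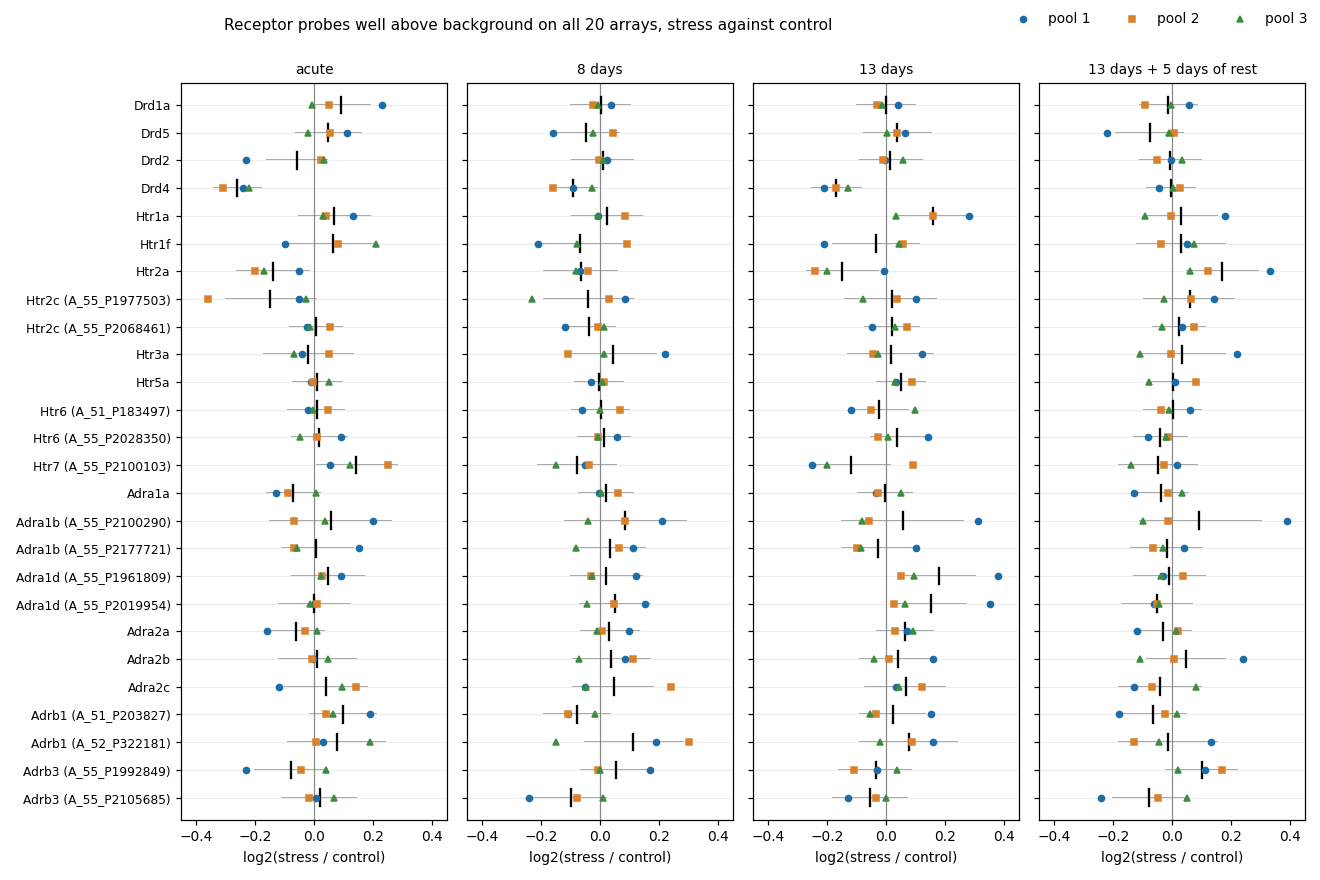
For the bright receptor probes reported here the log2 ratio of stress over control is plotted in the 3 pools of each time point, with a black bar at the mean and a grey line for its 95% interval in the limma fit. Drd4 lies below 0 in all 9 pools of the acute, 8-day and 13-day groups, from -0.31 to -0.029, and between -0.044 and 0.027 after rest.

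Among the dopamine receptors, Drd4, a Gi-coupled receptor of the D2 class that is known from cortical pyramidal cells and interneurons, had log2 ratios below 0 in all 9 pools of the acute, 8-day and 13-day groups. Its log2 ratios were -0.24, -0.31 and -0.22 in the 3 acute pools. They were -0.092, -0.16 and -0.029 at 8 days, and -0.21, -0.17 and -0.13 at 13 days. After 5 days of rest they were -0.044, 0.027 and 9.2e-04. The 3 rested pools lay close to 0, and the acute pools all lay below the rested pools, as in 4.30% of all bright probes. The acute mean was -0.26 (SE 0.038, n = 3 pools, 95% interval -0.34 to -0.18), a level 0.836 of the control, with an adjusted limma p of 0.0741, at rank 7 of all probes. The acute mean was -0.44 when the offset was 0, -0.44 by the value table that the authors deposited and -0.50 by the scanner's own ratio, so the size of the difference was not fixed by these arrays. At 13 days it was -0.17 (SE 0.038, adjusted p = 0.283) and at 8 days -0.093 (SE 0.038, adjusted p = 1.00). For the mean of the 4 time points the ratio was -0.13 (SE 0.019) at an adjusted limma p of 0.0492, which passes the p but not the size that a call requires. At that p alone 0.0228% of all probes passed.

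The Drd4 signal was low but measured throughout. Its probe was well above background in both channels on all 20 arrays, at a median red signal of 158 (range 102 to 255) and a median green signal of 82.3. On all 15 arrays of the acute, 8-day and 13-day groups the ratio was below 0. This pattern, chosen after its values were seen, held for 0.0613% of all bright probes, and original and swapped arrays share their RNA. Some of the 15 ratios were almost 0 on affected arrays: -0.0029 and -0.0055 on the 8-day originals of pools 2 and 3, and -0.0062 on the 13-day original of pool 3. With the repaired background all 15 were also below 0, as for 0.0728% of all bright probes. In pools 2 and 3 the original arrays averaged -0.11 over those time points and the swaps -0.23, and the dye effect of the probe was 0.048. Drd4 and Htr2a were the 2 of 27 bright receptor probes below 0 in all 9 pools, against 1.16% of all bright probes.

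With the repaired background the third acute pool moved from -0.22 to -0.35, the third 8-day pool from -0.029 to -0.11 and the third 13-day pool from -0.13 to -0.20. Of the rested pools, the second moved from 0.027 to 0.068 and the third from 9.2e-04 to -0.067, both further from 0. The acute mean of Drd4 was then -0.30 (SE 0.041, 95% interval -0.39 to -0.21, a level 0.811 of the control), at an adjusted limma p of 0.0334, where 0.0152% of all probes passed an adjusted p of 0.05. The mean of the 4 time points was -0.16 at an adjusted p of 0.0124, which 0.0507% of all probes passed at 0.05. The difference between rest and 13 days was 0.16 as processed (95% interval 0.047 to 0.28, adjusted p = 0.995) and 0.18 repaired (adjusted p = 0.895), and that between 8 days and acute was 0.17 (adjusted p = 1.00). Neither difference between time points passed the adjusted threshold.

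The adjusted p of Drd4 depended on single pools and on how limma pooled the variance, while its direction did not. Leaving out any 1 of the 12 pools took the mean of the 4 time points past 0.05, to between 0.0876 and 0.192, and the acute adjusted p was 0.994 without acute pool 2 and 0.0608 to 0.457 without any other pool. In the same fits on the repaired background the adjusted p was 0.0189 to 0.0605 for the mean of the 4 time points, under 0.05 in 9 of 12, and 0.0301 to 0.451 for the acute mean, under 0.05 in 3 of 12. With a variance trend and robust moderation the acute adjusted p was 0.978. The pool number coincides with the slides, of which each held 1 array of every time point, and pool 3 with its own scan day. With the pool number as a replicate block the adjusted limma p of Drd4 was 0.0356 at the acute time point, 0.110 at 13 days and 0.00751 for the mean of the 4 time points. With the slide as a block on the 20 arrays it was 0.00537, 0.115 and 0.00819. In that fit the within-pool correlation was 0.049, so arrays of a pool were counted as nearly independent. The replicate block also raised the number of all probes with an adjusted p under 0.05 from 2 to 18 at the acute time point and from 9 to 382 for the mean. The slide block raised these numbers to 108 and 186.

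**Figure D4:**
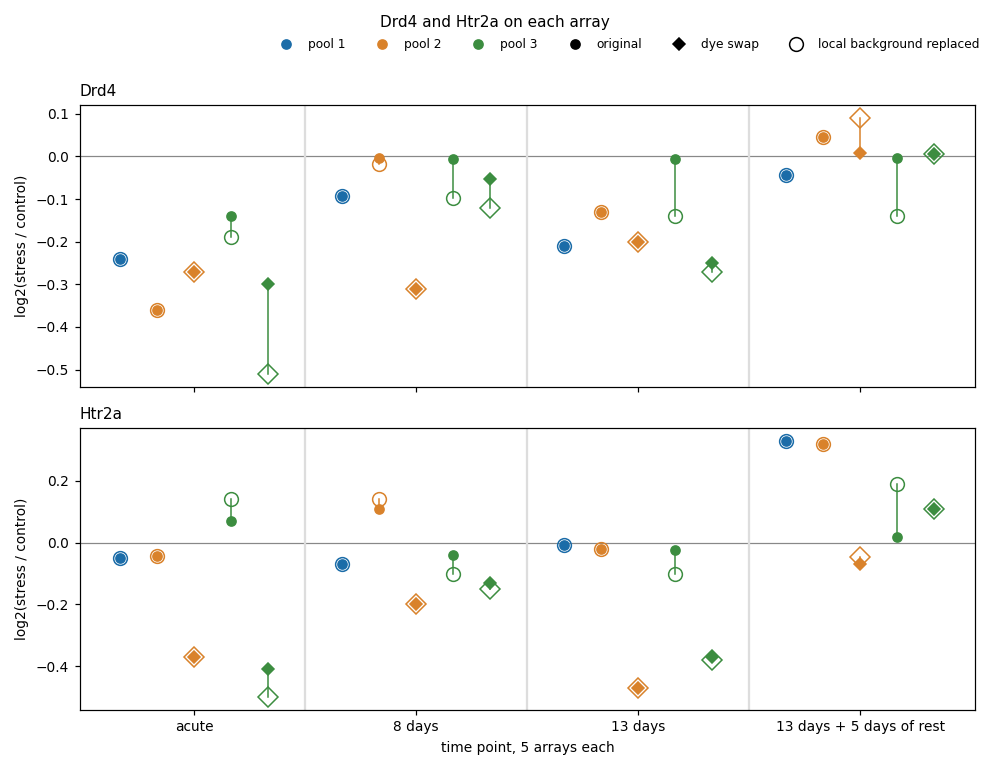
The log2 ratio of stress over control is plotted on each of the 20 arrays for Drd4 and Htr2a, with original and dye-swapped arrays marked apart, filled as processed and open for the repaired background. Drd4 lies below 0 on all 15 arrays of the first 3 time points in both dye orientations, whereas Htr2a averages 0.0096 on the originals and -0.32 on the swaps of pools 2 and 3 at those time points.

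The other bright dopamine receptors did not reach an unadjusted limma p of 0.05 in any comparison. Drd1a, the Gs-coupled receptor of the direct striatal pathway and of deep cortical neurons, had acute values of 0.23, 0.050 and -0.0068. Drd2, the Gi-coupled receptor that antipsychotic drugs block, had acute values of -0.23, 0.022 and 0.033. Drd5, a second Gs-coupled receptor, had 0.11, 0.054 and -0.020. The acute pools of each of these receptors lay on both sides of 0.

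Among the serotonin receptors, Htr2a, the Gq-coupled receptor of pyramidal cells, had the widest swing between time points. Its values were -0.050, -0.20 and -0.17 in the acute pools and -0.070, -0.042 and -0.083 at 8 days. They were -0.0070, -0.24 and -0.20 at 13 days, and 0.33, 0.12 and 0.061 after rest. The 9 pools of the first 3 time points lay below 0 and the 3 rested pools above it. This pattern, chosen after its values were seen, held for 0.130% of all bright probes. The difference between rest and 13 days was 0.32 (SE 0.080, 95% interval 0.15 to 0.49), with an adjusted limma p of 0.931, or 0.292 with the replicate block and 0.251 with the slide block. Single time points gave -0.14 for acute (adjusted p = 0.976), -0.15 at 13 days (adjusted p = 0.616) and 0.17 after rest (adjusted p = 0.999). With the repaired background the difference between rest and 13 days was 0.37 (SE 0.079, 95% interval 0.20 to 0.54, adjusted p = 0.521).

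Htr2a also had the largest dye effect of the bright receptors, 0.14. At 13 days the original arrays of pools 2 and 3 gave -0.019 and -0.024 and their swaps -0.47 and -0.37. At the acute time point the originals averaged 0.013 and the swaps -0.39, and after rest the originals averaged 0.17 and the swaps 0.018. The largest negative values of Htr2a thus came from the swapped arrays, and pool 1, which has no swap in these data, held its highest value after rest. Taking the dye effect of each probe off pool 1 removed the same amount at every time point. The difference between rest and 13 days was therefore bound to stay at 0.32, and only its adjusted limma p could change, to 0.389.

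Htr1a, the Gi-coupled receptor that also acts as the autoreceptor of serotonin neurons, was higher in all 3 pools at 13 days. Its values there were 0.28, 0.16 and 0.033, a mean of 0.16 (SE 0.055, adjusted p = 0.561), and 0.22 with the repaired background (adjusted p = 0.343). At the acute time point its values were 0.13, 0.040 and 0.029, at 8 days -0.0089, 0.083 and -0.0062, and after rest 0.18, -0.0026 and -0.091. The 13-day values overlapped those of the other time points. The repair moved the third 13-day pool to 0.21 and the second 8-day pool from 0.083 to 0.28.

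The bright probe of Htr7, a Gs-coupled receptor also found in the thalamus, had 0.055, 0.25 and 0.12 in the acute pools and -0.051, -0.039 and -0.15 at 8 days. At 13 days it had -0.25, 0.092 and -0.20, and after rest 0.017, -0.027 and -0.14. The acute pools lay above 0 and the 8-day pools below it. The difference 13 days minus acute was -0.26 (SE 0.087, adjusted p = 0.914) and 8 days minus acute was -0.22 (SE 0.087, adjusted p = 1.00).

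The other bright serotonin receptor probes were Htr1f, 2 probes of Htr2c, Htr3a, Htr5a and 2 probes of Htr6, and none had an unadjusted limma p under 0.05 as processed. One of the Htr2c probes (A_55_P1977503) had acute values of -0.052, -0.36 and -0.028, and with the repaired background its acute mean was -0.14 (adjusted p = 0.790). The dye effect of this probe was 0.12, and that of the Htr1f probe was -0.11. The second bright Htr2c probe gave -0.024, 0.055 and -0.016 in the same pools, and the log ratios of both probes had r = -0.28 over the 12 pools. The 2 Htr6 probes had r = -0.56.

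Among the adrenergic receptors, Adra1d, a Gq-coupled alpha-1 receptor, had 2 bright probes that ran together, with r = 0.92 over the 12 pools. At 13 days the first (A_55_P1961809) had 0.38, 0.050 and 0.093 and the second (A_55_P2019954) 0.35, 0.027 and 0.064. Both probes read the same 3 pools, which lay above 0, and the highest value of each probe was that of pool 1. In pools 2 and 3 the mean was 0.071 for the first probe and 0.045 for the second. The pool 2 swaps gave -0.10 and -0.077, and the pool 3 swaps 0.18 and 0.12. Over all 3 pools the means were 0.18 (SE 0.057, adjusted p = 0.517) and 0.15 (SE 0.055, adjusted p = 0.623). After rest the first probe had -0.030, 0.037 and -0.039 and the second -0.061, -0.052 and -0.045. The difference between rest and 13 days was -0.19 and -0.20 as processed, both at an adjusted limma p of 0.995. With the repaired background these were -0.13 and -0.16, and an unadjusted p under 0.05 was then not reached.

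Adra1b, a Gq-coupled receptor close to Adra1d, had the highest SD over the 12 pools, 0.17 for one of its probes (A_55_P2100290). Pool 1 of the 4 time points gave 0.20, 0.21, 0.31 and 0.39, and the other 8 pools -0.10 to 0.083. This pattern followed the pool number and not the time point. The second Adra1b probe gave 0.15, 0.11, 0.10 and 0.040 in pool 1, and the 2 probes had r = 0.79.

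Adrb1, the Gs-coupled beta receptor that prevails in cortex, had 2 bright probes that did not follow each other (r = -0.16). The first (A_51_P203827) had 0.19, 0.040 and 0.062 in the acute pools and -0.11, -0.11 and -0.019 at 8 days, a difference of -0.17 (SE 0.073, adjusted p = 1.00), and with the repaired background -0.17, where an unadjusted p under 0.05 was not reached. The second gave 0.031, 0.0066 and 0.19, then 0.19, 0.30 and -0.15. The first probe had a dye effect of 0.12. Its 8-day pools were -0.11, -0.28 and 0.20 with the repaired background, no longer all below 0.

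**Figure D5:**
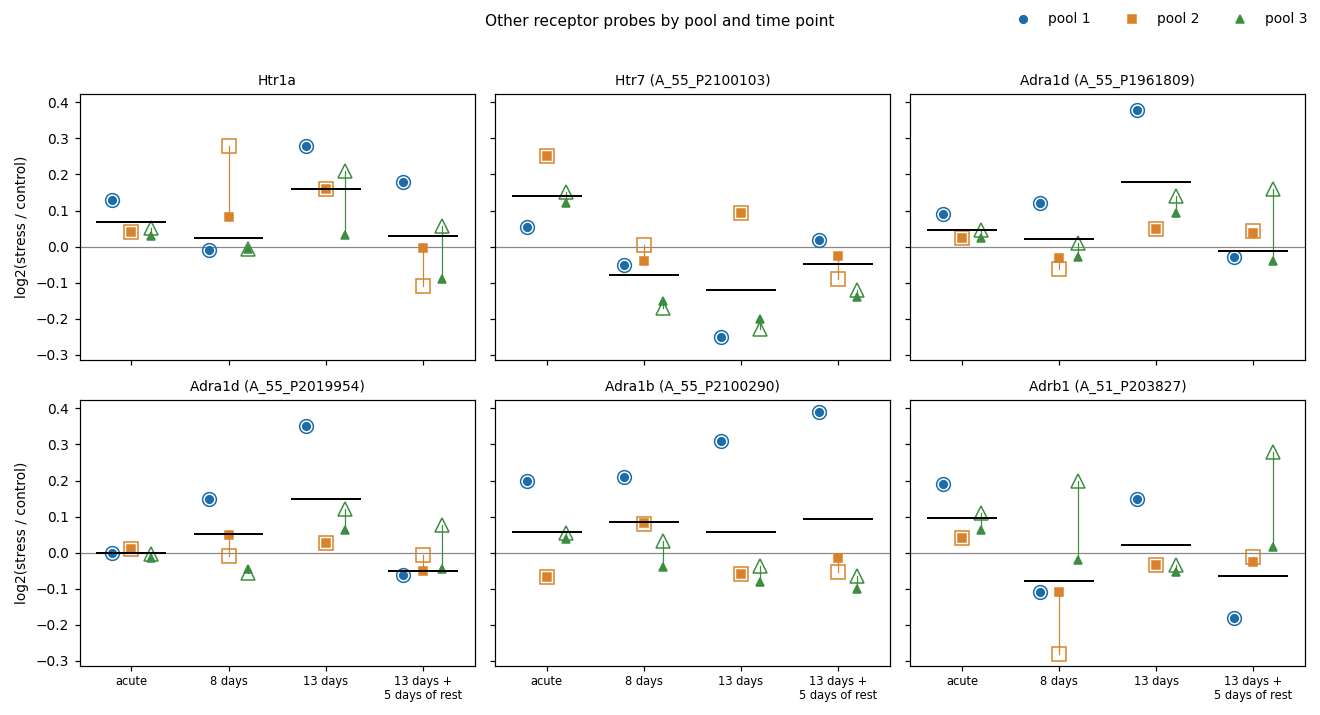
The log2 ratio of stress over control of 6 receptor probes is plotted in each pool of each time point, with filled symbols as processed, open symbols for the repaired background and a black line at the mean as processed. Pool 1 is the highest pool of both Adra1d probes at 13 days, at 0.38 and 0.35, and of Adra1b at all 4 time points, from 0.20 to 0.39.

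The adrenergic receptors Adra1a, Adra2a, Adra2b, Adra2c and Adrb3 did not reach an unadjusted limma p of 0.05 in any comparison. Adra2a, the alpha-2A receptor, had -0.16, -0.032 and 0.011 in the acute pools and 0.071, 0.029 and 0.092 at 13 days. Adra2c, a presynaptic and cortical alpha-2 receptor, had acute values of -0.12, 0.14 and 0.094.

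The genes that make, carry and break down monoamines were read beside the receptors, from a list of 20 genes of which 13 were bright. The transporters Slc6a2, Slc6a3 and Slc6a4 and the tryptophan hydroxylase Tph2, which belong to brainstem neurons, were among the 7 that were not bright, as was Tph1. None was called. At the acute time point Qdpr, which regenerates the cofactor of the hydroxylases, had 0.14 (adjusted p = 0.879), and Spr, an enzyme that makes this cofactor, 0.10 (adjusted p = 0.940), and the transporter Slc29a4 had -0.15 (adjusted p = 0.931), so 2 of 13 were higher and 1 lower at an unadjusted p under 0.05, against 2.80% and 2.88% of all bright probes, and with 1 higher and 1 lower on the repaired background. Qdpr was -0.16 at 8 days (adjusted p = 1.00) and -0.091 with the repaired background, where 2.19% of all bright probes were lower as processed. No gene passed at 13 days. After rest 2 of 13 were lower, against 3.14% of all bright probes. On the repaired background Spr (-0.15) and Qdpr (-0.10) were then lower and Slc29a4 (0.13) higher, each at an adjusted limma p of 0.988. The median of the 13 was 0.037, -0.0079, -0.049 and 0.025 at the 4 time points, against 0.0032 to -3.6e-04 for all bright probes.

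Of 25 genes for G proteins, adenylyl cyclases, phospholipases, kinases and phosphodiesterases all were bright and none was called. At 13 days 5 had an unadjusted limma p under 0.05 and were lower, against 5.52% of all bright probes: Gnal, the Gs-like subunit of striatal and olfactory neurons, at -0.16, Adcy5, its cyclase, at -0.14, and the G protein subunits Gnai2 at -0.13, Gnaq at -0.12 and Gnao1 at -0.12. With the repaired background the count was 3 lower and 1 higher. Of 20 gene names listed for desensitization and regulation of receptors 18 matched a probe, and all of these were bright. At 13 days Adrbk1, the kinase GRK2 that phosphorylates active receptors, had -0.18, and Arrb2, a beta-arrestin, had 0.18. S100a10, the p11 protein that binds Htr1b, had 0.17. None of these was called.

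Markers of other cells were counted at an unadjusted limma p under 0.05. Of all bright probes 2.80% were higher and 2.88% lower at the acute time point, 0.942% higher at 8 days, and 4.21% higher and 5.52% lower at 13 days. Of 11 bright markers of deep layer pyramidal neurons, 5 were higher at the acute time point (median 0.15), and 6 with the repaired background (median 0.16). Of 14 mural and meningeal markers 5 were lower at the acute time point (median -0.089) and 3 higher at 8 days (median 0.14), and the repaired background gave 4 (median -0.094) and 4 (median 0.17). Of 9 bright red cell genes 6 were higher at 8 days (median 0.50) and 7 at 13 days (median 1.34), of which 6 were called, with the same counts and medians of 0.63 and 1.29 on the repaired background. Of 12 astrocyte markers 4 were lower at 13 days (median -0.12), and 3 on the repaired background (median -0.080). Of 10 bright striatal markers 2 were higher at the acute time point under both, and none of 10 interneuron markers of the Htr3a class was higher then under either. Of 11 bright olfactory bulb markers 1 was lower at 13 days under both. Of 12 microglial markers 2 were lower at the acute time point and 1 on the repaired background, and of 8 bright choroid plexus markers 1 and 2. The part of these shifts in the Drd4, Htr2a and Htr1a values was not tested.

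The likeness of the named receptors to other genes was taken as Pearson's r of the log ratios over the 12 pools, among 26100 bright probes, as a description in which the dye and the affected arrays are shared. Drd4 was most like Clec18a (r = 0.88), Ccno (0.85) and Cyp4b1 (0.85). Htr2a was most like Lcorl (0.97), D9Ertd115e (0.94) and Zbtb37 (0.93). Htr7 was most like Gm13271 (0.93), S1pr5 (0.92) and Agpat9 (0.91), and the first Adrb1 probe most like Fgfr3 (0.95) and Per3 (0.93). Htr1a was most like a probe named NAP111547-1 (0.95) and Atp10a (0.93). The Adra1d probes were most like Plekhj1, Chka, Reep4, Mapk6 and Znhit1, at r of 0.94 to 0.95.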

How the data were processed

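Total RNA of pooled prefrontal tissue was measured on 20 two-colour Agilent arrays, 12 pairs of pools in 4 groups taken from the labels. The scanner tables deposited by the authors hold mean spot intensities and local backgrounds without normalization, a log10 ratio of red over green that Feature Extraction had background-subtracted and dye-normalized, and 0 or 1 marks for control, outlier and well-above-background spots. The authors' own value tables give a normalized log2 ratio of stress over control, centred near 0 and turned on swaps, and they served as an alternative only. For its own analysis of the raw files the paper names normexp, loess and Aquantile, the steps also used here, with no offset given. Whether the value tables were made that way is not stated in the sources used here. The r of the value tables with the scanner ratio was 0.30 to 0.68 on the 8 affected arrays and 0.78 to 0.94 on the others.

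The packages limma (3.58.1), statmod (1.5.0), jsonlite (2.0.0) and data.table (version 1.17.8) ran under R 4.3.3. Mean intensities went through normexp (offset 50), loess within arrays and Aquantile. Spots marked as outliers, 0.314% to 0.730% per array, were made missing, 1377 control spots were dropped, and the other 43020 spots gave 39429 probes. The ratio of a swapped array was turned before the mean with its original was taken. A limma fit over 12 pools had 1 coefficient per time point (8 residual and 4.86 prior degrees of freedom), and differences were contrasts of it. P-values were adjusted by Benjamini-Hochberg over 39429 probes, and a call needed both an adjusted p under 0.05 and a size of more than 0.5 on the log2 scale. All 4 time points had 1 array on each slide, and a slide held a single pool number, so the replicate block stands for slide and, for pool 3, scan day. The number of arrays limits the precision. The scripts were tested on simulated data.

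Receptors were named with values in every pool where a bright probe had an unadjusted p under 0.05 in any comparison, had the same sign in 3 pools with a mean over 0.15 in size, or had 1 of the 2 highest SDs over pools. The few other values given serve as examples and were chosen after their values were seen. The patterns over several time points of Drd4 and Htr2a, given with their shares of all bright probes, were also chosen after seeing the values. Members, companion lists and marker lists were chosen with earlier results of these data known. Of the 37 probes 35 matched a RefSeq accession. Alternatives covered the background, normalization, intensities, scanner ratio and value table, filters, moderation, dye, slide, replicate number, and leaving out each pool. The repaired background, the affected arrays left out and the dye effect taken off pool 1 were added after seeing the data. The values of 1 member are not reported here, and it is counted in the totals only.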

Additional observations from a re-analysis of the deposited data

Results flagged for a closer look

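Receptors with all 3 pools above 0 at one time point and all 3 below 0 at another stand here. This held for 4 of 27 bright receptor probes and for 12.2% of all bright probes. Htr2a lay above 0 after rest and below 0 at the acute time point, 0.31 apart, a difference that was not tested (0.35 with the repaired background). It was 0.24 apart between rest and 8 days, which was not tested either (0.28 repaired), and 0.32 apart between rest and 13 days, with an adjusted limma p of 0.931 (0.37 repaired).

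The bright Htr7 probe lay above 0 at the acute time point and below 0 at 8 days, 0.22 apart (adjusted p = 1.00). The Adra1d probe A_55_P2019954 lay above 0 at 13 days and below 0 after rest, 0.20 apart (adjusted p = 0.995). The Adrb1 probe A_51_P203827 lay above 0 at the acute time point and below 0 at 8 days, 0.17 apart (adjusted p = 1.00). With the repaired background these 3 gave 0.23, 0.16 and 0.17, with 2 of the 3 lower pools below 0 in each.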

How the results depend on the processing

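No receptor probe was called in any of the 9 comparisons under the 36 settings run, the one reported included. Drd4 was below 0 at the acute time point in all 36, from -0.51 to -0.23, with an adjusted limma p of 5.52e-04 to 0.998 that was under 0.05 in 9 of them. Its mean of the 4 time points ran from -0.27 to -0.099 and passed in 13. The scanner's ratio gave an acute value of -0.50 (adjusted p = 0.209), the value table -0.44 (0.725), an offset of 0 -0.44 (0.755), and the affected arrays left out -0.28 (0.998). Deviations of pools with one number, which share slides, correlated at 0.093 to 0.51 for number 1, -0.12 to 0.37 for number 2 and 0.025 to 0.45 for number 3. With the replicate block the acute Drd4 value was -0.26 at an adjusted p of 0.0356, the adjusted p of its mean of 4 fell to 0.00751, and no receptor was called. Htr2a, rest minus 13 days, ran from 0.24 to 0.46, and its adjusted p was under 0.05 in 1 setting, the 20 arrays with a dye term and the repaired background (0.0143), where arrays of a pool were counted as nearly independent.

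The mean of 4 time points of the Adra1b probe A_55_P2100290 turned to -0.030 with pools 2 and 3 only, and to -0.014 with the repaired background as well, and rest minus 13 days of the Adra1d probe A_55_P1961809 turned to 0.0077 under the latter. Pool 1 has no dye swap among the 20 arrays, and the cause was not tested. Counts over all probes ranged from 0 to 67 at the acute time point (1 as reported), 0 to 26 at 8 days (0), 0 to 21 at 13 days (9), 0 to 46 after rest (0) and 0 to 44 for the mean of 4 (5). For 13 days minus acute they ranged from 0 to 20 (1), 8 days minus acute 0 to 9 (0), 13 days minus 8 days 0 to 1 (0) and rest minus 13 days 0 to 21 (0). Drd2 and Htr5a were well above background in the green channel on 9 and 12 of the 20 arrays, which limits their ratios.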
